A study of Mus musculus with 6 samples.

Results

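The nuclear genes of respiratory complexes II, III, IV and V were compared between libraries labelled as mouse heart after a vector for FNDC4 and after a control vector. The genes were taken by symbol from the deposited count table: the Sdha to Sdhd genes, symbols starting with Uqc, Cyc1, symbols starting with Cox4 to Cox8, and symbols starting with Atp5, each with at least 10 counts summed over the 6 libraries. The rule gave 50 of 27482 gene symbols, with 4 genes of complex II, 12 of complex III, 17 of complex IV and 17 of complex V. Of these, 48 passed the minimum count for testing, and Cox6b2 and Cox7b2 did not. The rule used names and a summed count, and no difference between the groups.

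The 3 AAV9-hFNDC4 libraries came from material labelled heart with the genotype label FNDC4 overexpression, and the 3 AAV9-CTRL libraries from material labelled heart with the genotype label Control. AAV9 is an adeno-associated virus serotype used to carry genes into the heart. FNDC4 belongs to the family of proteins that hold a fibronectin type III domain, and cells secrete it. Both groups had ischemia/reperfusion (I/R), in which blood flow to the heart is stopped and then let back, and the tissue was taken 24 h later from mice that the series title gives as male. With the vector's promoter and the strain and age of the mice not given in the sources used here, groups go by these labels. Nor do the labels tie each library to an animal of its own. The p-values therefore cover the spread among libraries, and this spread may be technical.

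Complex II (succinate dehydrogenase) passes electrons from succinate to coenzyme Q and is also an enzyme of the tricarboxylic acid cycle. Complex III (cytochrome bc1) hands them to cytochrome c, complex IV (cytochrome c oxidase) gives them to oxygen, and complex V (ATP synthase) uses the proton gradient to make ATP. The heart depends on this chain for most of its ATP. Complexes III, IV and V combine subunits from nuclear genes with a few subunits encoded in mitochondrial DNA, whereas complex II is wholly nuclear. Several complex IV subunits exist as a general isoform and a second isoform made mainly in heart and skeletal muscle, testis or lung.

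Total counts were 34419687 to 35149915 per AAV9-hFNDC4 library and 32975817 to 36074046 per AAV9-CTRL library. Markers that define heart muscle were at low levels in both groups. Of 24 cardiomyocyte markers, 4 reached a level of 1 CPM (reads of a gene scaled to the size of its library) in at least 3 libraries, and Myl7, Pln, Nkx2-5 and Tbx20 had no counts in any library. Myh6 (the main adult myosin heavy chain) averaged 0.276 CPM over the 6 libraries and Tnnt2 (cardiac troponin T) 44.6 CPM. The summed cardiomyocyte markers were 66.5 to 79.1 CPM in AAV9-hFNDC4 and 70.4 to 77.4 CPM in AAV9-CTRL libraries. Other marker sums are given as ranges, and were not tested. The 11 fibroblast markers in the table summed to 12558 to 13572 CPM in AAV9-hFNDC4 and 7185 to 8210 CPM in AAV9-CTRL libraries (7 reached 1 CPM). Most of that gap was Fn1 (fibronectin), at 5201 to 6121 CPM in AAV9-hFNDC4 and 1714 to 1932 CPM in AAV9-CTRL libraries. Col1a2 was also higher without overlap, at 1364 to 1718 CPM in AAV9-hFNDC4 and 923 to 1124 CPM in AAV9-CTRL libraries. So were Col3a1, Ddr2 and Pdgfra, while Col1a1 overlapped. Vim overlapped, at 3146 to 3684 CPM in AAV9-hFNDC4 and 3195 to 4153 CPM in AAV9-CTRL libraries, and Dcn, Lum, Tcf21 and Postn were near 0. The 7 mural markers in the table summed to 568 to 636 CPM in AAV9-hFNDC4 and 283 to 344 CPM in AAV9-CTRL libraries (Pdgfrb and Cspg4 reached 1 CPM, while Acta2, Tagln, Myh11 and Rgs5 did not). The 12 leukocyte markers summed to 19.6 to 22.6 CPM in AAV9-hFNDC4 and 34.8 to 42.1 CPM in AAV9-CTRL libraries (4 reached 1 CPM). Most of that sum was Cd68, at 11.7 to 13.7 CPM in AAV9-hFNDC4 and 23.0 to 29.1 CPM in AAV9-CTRL libraries. Lyz2 overlapped, and Ptprc, Adgre1, C1qa, S100a9 and Ly6g were near 0 in both groups. The 11 endothelial markers overlapped, with sums of 361 to 433 CPM in AAV9-hFNDC4 and 411 to 536 CPM in AAV9-CTRL libraries (6 reached 1 CPM, Emcn was at 0). Eng, Fabp4 and Ly6c1 made up most of these sums, with means of 224, 166 and 44.3 CPM over the 6 libraries. Cdh5, Kdr and Tie1 were near 0. The levels of the muscle markers go against the heart label, so the groups are named by their vector. The part that these marker levels have in the results on the respiratory genes was not tested. In such bulk samples, fewer cells of a type and less RNA per cell cannot be told apart.

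Most of the nuclear genes of complexes II to V were lower in the AAV9-hFNDC4 libraries, by about the same proportion in complexes III, IV and V and by less in complex II. In the AAV9-hFNDC4 libraries, 42 of the 48 tested genes were lower and 0 were higher (edgeR quasi-likelihood test, Benjamini-Hochberg adjusted p under 0.05 over 14663 genes), against a background of 25% of all tested genes called lower and 22.1% called higher. Calls in either direction made up 47.1% of all tested genes. The groups did not overlap for 43 of the 48 genes, against 56.6% of all tested genes. In all 43 the AAV9-hFNDC4 libraries were the lower ones, which was the case for 29.5% of all tested genes. The median log2 fold change (AAV9-hFNDC4 over AAV9-CTRL) of the 48 genes was -0.80, with quartiles of -0.92 and -0.56, and that of all tested genes was 0.01. By complex, 3 of 4 genes were lower in complex II, 11 of 12 in complex III, 11 of 15 tested in complex IV and 17 of 17 in complex V. The median log2 fold changes were -0.48 in complex II, -0.78 in complex III, -0.88 in complex IV and -0.78 in complex V. Differences between the complexes were not tested.

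**Figure D1:**
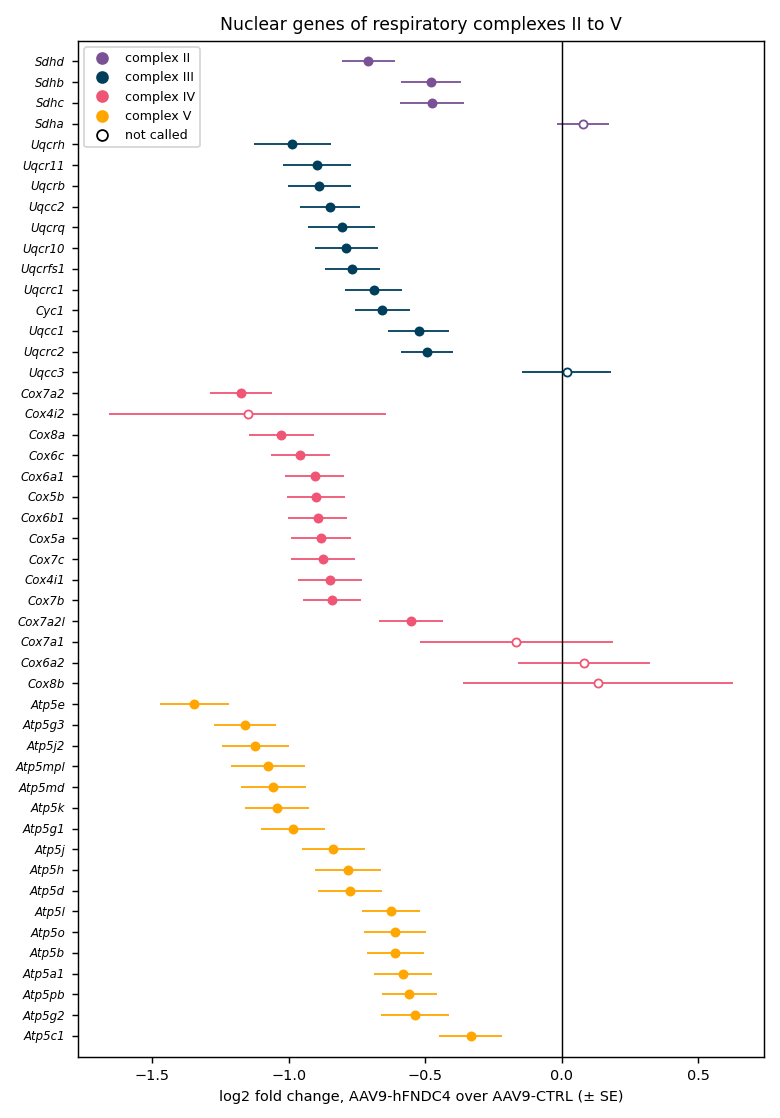
Log2 fold change of each of the 48 tested genes (AAV9-hFNDC4 over AAV9-CTRL, horizontal axis, bars show the standard error), grouped by complex, with filled and open points for genes that passed and did not pass the edgeR test. The genes of complex V all lie left of 0, and the points near 0 are Sdha, Uqcc3, Cox6a2, Cox7a1 and Cox8b.

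Summed over the genes of each complex, levels were 4778 ± 89.8 CPM in AAV9-hFNDC4 and 7684 ± 699 CPM in AAV9-CTRL libraries for complex V (values after ± are SD, n = 3 libraries, throughout). For complex IV the sums were 1798 ± 18.4 CPM in AAV9-hFNDC4 and 3322 ± 401 CPM in AAV9-CTRL libraries. For complex III they were 1131 ± 30.5 CPM in AAV9-hFNDC4 and 1897 ± 165 CPM in AAV9-CTRL libraries. The ratio of the sums was thus 0.622 for complex V, 0.541 for complex IV and 0.596 for complex III. Complex II, at 613 ± 7.30 CPM in AAV9-hFNDC4 and 763 ± 57.4 CPM in AAV9-CTRL libraries, had a ratio of 0.803. All 50 genes together took 0.879 ± 0.0248% of the counts in AAV9-hFNDC4 and 1.29 ± 0.112% in AAV9-CTRL libraries.

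The AAV9-hFNDC4 libraries were closer to each other than the AAV9-CTRL libraries were. The median coefficient of variation over the 48 genes was 4.19% in AAV9-hFNDC4 and 12.3% in AAV9-CTRL libraries, and it was larger in AAV9-CTRL for 44 genes. AAV9-CTRL replicate 1 was the lowest AAV9-CTRL library for 46 of the 48 genes, so it lay nearest to the AAV9-hFNDC4 libraries. Without it, 44 of 49 tested genes were called lower, with a median log2 fold change of -0.86. Of these, 42 were the genes called with all libraries. The tested genes then included one that had too few counts for testing with all libraries.

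Promoter windows from RefSeq (GRCm38.p6, 250 bases before to 50 after each gene's start) were searched on both strands for 4 motifs of known regulators of respiratory genes. These were GCGCA and GCGC with any 1 base between them for NRF1, CCGGAAG for ETS factors such as GABPA, AAGATGGC for YY1 and TCAAGGTCA for the estrogen-related receptors (ERR). Windows were found for 39 of the 50 genes, and no matches of different motifs overlapped in them. The NRF1 motif was in 11 of 39 genes (28.2%, against 10.4% of 11503 tested genes with a window), and the ETS motif in 13 (33.3%, against 18.9%). The YY1 motif was in 4 genes (10.3%, against 5.01%) and the ERR motif in 2 (5.13%, against 0.313%). The median log2 fold change was -0.71 for the 11 tested genes with the NRF1 motif and -0.84 for the 26 without it, and -0.90 for the 13 with the ETS motif and -0.73 for the 24 without it. A match is a description of the letters in the window and not a bound site. In the windows printed below, capitals mark these matches on either strand and each sequence reads 5′ to 3′ along the gene.

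In complex II, the catalytic flavoprotein was not called and the other 3 subunits were lower. Sdha, which oxidises succinate, had 276, 269 and 275 CPM in AAV9-hFNDC4 libraries, against 251, 253 and 273 CPM in AAV9-CTRL libraries. The groups overlapped, and the log2 fold change was 0.08 (SE 0.09, edgeR adjusted p = 0.528). Sdhd, a membrane anchor, had 129.7, 132 and 129 CPM in AAV9-hFNDC4 libraries, against 197, 222 and 220.3 CPM in AAV9-CTRL libraries. All AAV9-hFNDC4 libraries were below the AAV9-CTRL libraries (log2 fold change -0.71, SE 0.10, edgeR adjusted p = 0.000174). Sdhb, the iron-sulfur subunit, had 97.3, 104 and 97.4 CPM in AAV9-hFNDC4 libraries, against 122, 146 and 149.5 CPM in AAV9-CTRL libraries (log2 fold change -0.48, SE 0.11, edgeR adjusted p = 0.00374). Sdhc, the anchor that holds heme b, had 116, 109 and 104 CPM in AAV9-hFNDC4 libraries, against 128, 168 and 161 CPM in AAV9-CTRL libraries (log2 fold change -0.48, SE 0.12, edgeR adjusted p = 0.00625). For both genes the groups did not overlap, and AAV9-CTRL replicate 1 was the control library closest to the AAV9-hFNDC4 values. With a correction for transcript length, described further on, Sdhb no longer passed the test (log2 fold change -0.18).

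The promoter windows of the complex II genes with the smallest and the largest change are shown because both hold the NRF1 motif. That of Sdha holds it at 3 places, and that of Sdhd holds 1 match each of the NRF1, ETS and ERR motifs.
Sdha (chr13:74350191-74350490, minus strand): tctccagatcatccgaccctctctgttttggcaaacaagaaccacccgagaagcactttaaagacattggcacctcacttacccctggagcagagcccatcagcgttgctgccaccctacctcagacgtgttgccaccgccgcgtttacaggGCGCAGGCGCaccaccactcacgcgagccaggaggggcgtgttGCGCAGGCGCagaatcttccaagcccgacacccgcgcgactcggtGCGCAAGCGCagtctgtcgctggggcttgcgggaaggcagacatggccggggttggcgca
Sdhd (chr9:50603800-50604099, minus strand): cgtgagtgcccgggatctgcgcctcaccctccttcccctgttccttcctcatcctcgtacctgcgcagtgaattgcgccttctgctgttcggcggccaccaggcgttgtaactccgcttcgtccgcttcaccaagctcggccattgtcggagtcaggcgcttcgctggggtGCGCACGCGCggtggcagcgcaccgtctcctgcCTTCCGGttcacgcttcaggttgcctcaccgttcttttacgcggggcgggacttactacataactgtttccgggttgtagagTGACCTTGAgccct

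In complex III, the 9 structural subunits were all lower in AAV9-hFNDC4 libraries, with a median log2 fold change of -0.79. Uqcrh, the hinge protein that helps cytochrome c1 meet cytochrome c, had 122, 96.0 and 119.8 CPM in AAV9-hFNDC4 libraries, against 183, 257 and 230.2 CPM in AAV9-CTRL libraries (log2 fold change -0.99, SE 0.14, edgeR adjusted p = 0.000218). Uqcr11, an accessory subunit, had 62.6, 56.1 and 62.7 CPM in AAV9-hFNDC4 libraries, against 97.1, 131 and 109 CPM in AAV9-CTRL libraries (log2 fold change -0.90, SE 0.12, edgeR adjusted p = 0.000185). Uqcrb, which lies near the coenzyme Q site, had 103, 100.4 and 91.4 CPM in AAV9-hFNDC4 libraries, against 157, 189 and 201 CPM in AAV9-CTRL libraries (log2 fold change -0.89, SE 0.12, edgeR adjusted p = 0.000129). In these 3 genes every AAV9-hFNDC4 library was below every AAV9-CTRL library. The accessory subunits Uqcrq and Uqcr10 had log2 fold changes of -0.81 and -0.79, and did not pass the test with the length correction (-0.27 and -0.21).

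The electron-carrying and core subunits of complex III had a median log2 fold change of -0.67, against -0.89 for the 5 accessory subunits, and with the length correction the order was the reverse (-0.49 for the core and electron-carrying subunits and -0.32 for the accessory subunits). Uqcrfs1, the Rieske iron-sulfur protein, averaged 110.5 ± 1.57 CPM in AAV9-hFNDC4 and 188 ± 15.2 CPM in AAV9-CTRL libraries (log2 fold change -0.77). Cyc1, cytochrome c1, averaged 123 ± 6.26 CPM in AAV9-hFNDC4 and 193 ± 14.5 CPM in AAV9-CTRL libraries (log2 fold change -0.66). The core proteins Uqcrc1 and Uqcrc2 had log2 fold changes of -0.69 and -0.49, and the groups did not overlap in any of these 4 genes. Uqcrc2 shares 26.6% of its exon bases with Pdzd9, so part of its reads could belong to either gene.

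The assembly factors of complex III did not move together. Uqcc2 averaged 47.5 ± 1.19 CPM in AAV9-hFNDC4 and 85.7 ± 8.17 CPM in AAV9-CTRL libraries (log2 fold change -0.85, edgeR adjusted p = 0.00012). Uqcc1 averaged 46.1 ± 3.61 CPM in AAV9-hFNDC4 and 66.3 ± 4.85 CPM in AAV9-CTRL libraries (log2 fold change -0.53, edgeR adjusted p = 0.00256). Uqcc1 and Uqcc2 act together in making cytochrome b, and both were lower in all AAV9-hFNDC4 libraries. Uqcc3, which acts after them, had 10.9, 10.6 and 10.7 CPM in AAV9-hFNDC4 libraries, against 9.17, 12.3 and 10.3 CPM in AAV9-CTRL libraries. Its groups overlapped (log2 fold change 0.02, SE 0.16, edgeR adjusted p = 0.937), and with the length correction it was called higher (0.42).

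In complex IV, the general isoforms and the subunits with a single gene were lower as a block, while the isoforms typical of heart and muscle were low in every library and did not pass the test. All 10 general isoforms and single genes were called lower, in a narrow range of log2 fold changes from -1.18 to -0.84 (median -0.90). Of the 6 tissue isoforms, 4 were tested and 0 passed. Cox7a2l, which joins complexes III and IV into supercomplexes, averaged 163 ± 9.84 CPM in AAV9-hFNDC4 and 239 ± 32.5 CPM in AAV9-CTRL libraries (log2 fold change -0.55, SE 0.12, edgeR adjusted p = 0.00251).

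**Figure D2:**
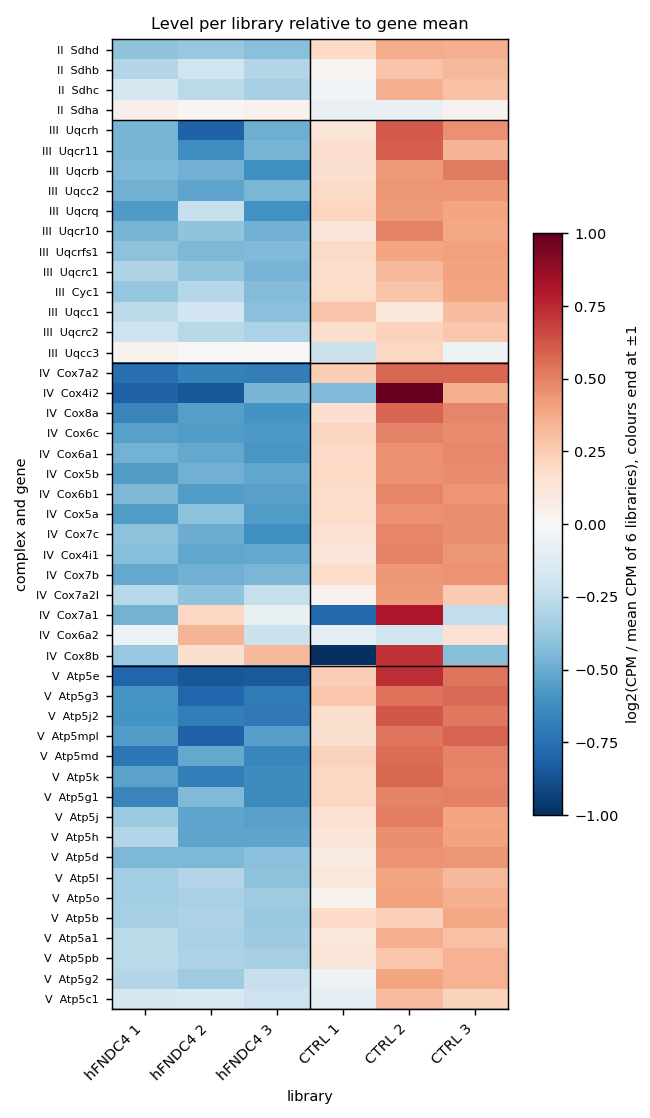
Level of each tested gene (rows, by complex) in each library (columns, AAV9-hFNDC4 left of AAV9-CTRL), as the log2 of its CPM over its mean CPM in the 6 libraries, blue below and red above that mean, with colours that end at ±1. Nearly all rows are blue in the AAV9-hFNDC4 columns and red in the AAV9-CTRL columns, palest in AAV9-CTRL replicate 1, which was the lowest AAV9-CTRL library for 46 of the 48 genes.

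Cox7a2, the general isoform of subunit 7a, had the largest change in the complex. It had 68.6, 72.4 and 71.6 CPM in AAV9-hFNDC4 libraries, against 137, 172 and 172 CPM in AAV9-CTRL libraries (log2 fold change -1.18, SE 0.11, edgeR adjusted p = 2.64e-05). Cox8a, the general isoform of the small membrane subunit 8, had 193, 208 and 201 CPM in AAV9-hFNDC4 libraries, against 343, 457 and 428 CPM in AAV9-CTRL libraries (log2 fold change -1.03, SE 0.12, edgeR adjusted p = 6.71e-05). In both, the highest AAV9-hFNDC4 library was well under the lowest AAV9-CTRL library. Cox4i1, the general isoform of the regulatory subunit 4, had 388, 363 and 366 CPM in AAV9-hFNDC4 libraries, against 567, 735 and 709.8 CPM in AAV9-CTRL libraries (log2 fold change -0.85, SE 0.12, edgeR adjusted p = 0.000182). Cox6a1 had 129.7, 126 and 120.2 CPM in AAV9-hFNDC4 libraries, against 205, 248 and 252 CPM in AAV9-CTRL libraries (log2 fold change -0.91). Cox6b1, which faces the intermembrane space where cytochrome c docks, had 143, 133 and 134 CPM in AAV9-hFNDC4 libraries, against 222, 275 and 266 CPM in AAV9-CTRL libraries (log2 fold change -0.90). Cox7b had 126, 129 and 131 CPM in AAV9-hFNDC4 libraries, against 204, 243 and 246 CPM in AAV9-CTRL libraries (log2 fold change -0.84). None of these general isoforms had overlapping groups. Among the single genes, Cox6c averaged 221 ± 2.82 CPM in AAV9-hFNDC4 and 429.8 ± 45.2 CPM in AAV9-CTRL libraries (log2 fold change -0.96), and Cox5a, Cox5b and Cox7c had log2 fold changes of -0.88, -0.90 and -0.88. Cox5a shares 41.7% of its exon bases with another annotated gene, and Cox5b has a near-identical copy elsewhere in the transcripts, so how their reads were assigned is uncertain, which also holds for Uqcrb of complex III.

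The tissue isoforms were at low levels. Cox6a2, the heart and muscle isoform of subunit 6a, had 3.71, 4.90 and 3.34 CPM in AAV9-hFNDC4 libraries, against 3.64, 3.38 and 4.28 CPM in AAV9-CTRL libraries (log2 fold change 0.08, SE 0.24, edgeR adjusted p = 0.807). Cox7a1, the heart and muscle isoform of subunit 7a, had 3.90, 6.26 and 5.13 CPM in AAV9-hFNDC4 libraries, against 3.15, 9.47 and 4.58 CPM in AAV9-CTRL libraries (log2 fold change -0.17, SE 0.35, edgeR adjusted p = 0.726). Cox8b, the heart and muscle isoform of subunit 8, had 0.801, 1.16 and 1.30 CPM in AAV9-hFNDC4 libraries, against 0.492, 1.72 and 0.778 CPM in AAV9-CTRL libraries (log2 fold change 0.13, SE 0.49, edgeR adjusted p = 0.843). In all 3 genes the groups overlapped, and for Cox7a1 and Cox8b AAV9-CTRL replicate 2 was the highest of all 6 libraries. Cox6a2 shares 10.3% of its exon bases with Itgad. Cox4i2, an isoform of subunit 4 known from lung and hypoxia, had 0.427, 0.416 and 0.543 CPM in AAV9-hFNDC4 libraries, against 0.550, 1.59 and 0.957 CPM in AAV9-CTRL libraries. Its groups did not overlap, but the difference did not pass the test (log2 fold change -1.15, SE 0.51, edgeR adjusted p = 0.0826). Without AAV9-CTRL replicate 1 it did (log2 fold change -1.42, edgeR adjusted p = 0.0433), and without AAV9-CTRL replicate 2 the log2 fold change was -0.70 (edgeR adjusted p = 0.326). The testis isoform Cox6b2 had 0, 0 and 0 counts in AAV9-hFNDC4 libraries, against 10, 29 and 37 counts in AAV9-CTRL libraries. A floor of 3 counts over the AAV9-hFNDC4 libraries covers counting error only. The AAV9-CTRL mean of 0.774 CPM was 28.5-fold above that floor, and its libraries ranged from 0.289 to 1.11 CPM. Fewer genes of any kind had counts in AAV9-hFNDC4 (18717 to 18863 per library) than in AAV9-CTRL libraries (20431 to 20870). The testis isoform Cox7b2 had 4, 0 and 4 counts in AAV9-hFNDC4 libraries, against 6, 0 and 0 counts in AAV9-CTRL libraries, which is too few to compare.

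In the 3 pairs with a muscle isoform, that isoform took a larger share in every AAV9-hFNDC4 library than in any AAV9-CTRL library, in a design too small for an exact test to pass 0.05. Per transcript length, Cox7a1 made up 7.86, 11.5 and 9.71% of the Cox7a1 and Cox7a2 total in AAV9-hFNDC4 libraries, against 3.34, 7.64 and 3.85% in AAV9-CTRL libraries. Cox6a2 made up 2.35, 3.16 and 2.28% of its pair with Cox6a1 in AAV9-hFNDC4 libraries, against 1.47, 1.13 and 1.41% in AAV9-CTRL libraries. Cox8b made up 0.629, 0.848 and 0.981% of its pair with Cox8a in AAV9-hFNDC4 libraries, against 0.218, 0.572 and 0.277% in AAV9-CTRL libraries. The groups did not overlap in these 3 pairs, although for Cox7a1 and Cox8b AAV9-CTRL replicate 2 came close to the lowest AAV9-hFNDC4 library. The difference in the log2 ratio of muscle to general isoform was 1.13 for subunit 7a, 0.97 for subunit 6a and 1.30 for subunit 8. For each, a two-sided exact permutation test gave p = 0.1, the smallest that 3 against 3 libraries allow, and 0.15 after Benjamini-Hochberg adjustment over the 6 isoform pairs. The muscle isoforms Cox7a1, Cox6a2 and Cox8b were themselves not called, with log2 fold changes of -0.17, 0.08 and 0.13. Their general partners had -1.18, -0.91 and -1.03, so the larger shares largely restate the lower general isoforms. Cox4i2 was 0.114, 0.118 and 0.153% of its pair with Cox4i1 in AAV9-hFNDC4 libraries, against 0.1002, 0.224 and 0.139% in AAV9-CTRL libraries, with overlapping groups (exact permutation p = 0.7, adjusted 0.7). For the testis isoforms the same exact test gave p = 0.1 for Cox6b2 and p = 0.2 for Cox7b2 (adjusted 0.15 and 0.24). In all 6 libraries the general isoform thus supplied most of each pair.

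**Figure D3:**
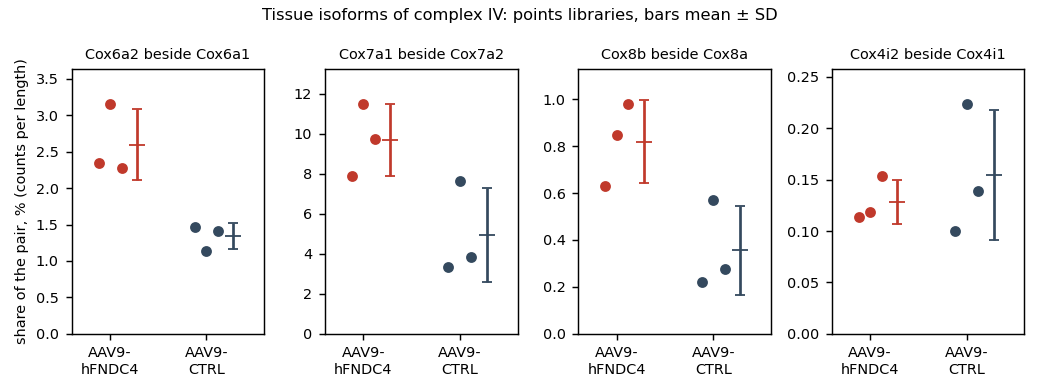
Share of the tissue isoform in its pair (percent, per transcript length) in each library, AAV9-hFNDC4 left of AAV9-CTRL. The shares of Cox6a2, Cox7a1 and Cox8b are higher in all 3 AAV9-hFNDC4 libraries, and those of Cox4i2 overlap. The levels of Cox6a2, Cox7a1 and Cox8b themselves overlapped between the groups, while their general partners were lower.

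The promoter windows of the subunit 8 pair are shown because Cox8a was lower and Cox8b was not called. That of Cox8a holds the ETS motif at 2 places, and that of Cox8b holds none of the 4 motifs. The windows of Cox5a, Cox5b, Cox7a2, Cox7b and Cox7c, all called lower, also hold none of the 4 motifs. Those of Cox6a1 and Cox6b1, also called lower, hold the ETS motif.
Cox8a (chr19:7217567-7217866, minus strand): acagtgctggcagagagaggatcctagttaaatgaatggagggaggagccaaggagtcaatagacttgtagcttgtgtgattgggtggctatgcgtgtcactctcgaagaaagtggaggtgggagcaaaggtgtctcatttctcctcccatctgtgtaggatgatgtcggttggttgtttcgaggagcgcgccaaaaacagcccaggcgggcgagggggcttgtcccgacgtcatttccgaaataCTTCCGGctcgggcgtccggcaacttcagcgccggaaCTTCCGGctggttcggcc
Cox8b (chr7:140900397-140900696, minus strand): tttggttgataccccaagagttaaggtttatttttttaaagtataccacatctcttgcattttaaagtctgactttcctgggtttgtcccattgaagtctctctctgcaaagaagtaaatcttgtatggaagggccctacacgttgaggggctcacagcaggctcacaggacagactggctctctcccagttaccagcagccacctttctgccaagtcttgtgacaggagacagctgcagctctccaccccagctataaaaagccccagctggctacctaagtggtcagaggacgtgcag

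In complex V, all 17 genes were lower, with medians that differed by part of the enzyme. The 5 small membrane subunits had a median log2 fold change of -1.06, the 3 c-ring genes -0.98, the 4 peripheral stalk genes -0.70 and the 5 genes of the catalytic F1 head -0.61. With the length correction the order was different, at -0.72 for the c-ring genes, -0.51 for the head, -0.43 for the membrane subunits and -0.35 for the peripheral stalk. The corrected c-ring values ran from -0.999 for Atp5g1, whose transcript length is uncertain, to -0.04 for Atp5g2. The place of the c-ring in the corrected order is therefore uncertain. These differences between parts were not tested, and the head includes both the largest and the smallest uncorrected change of the complex. Atp5e, the epsilon subunit of the central stalk, had 99.5, 95.9 and 96.3 CPM in AAV9-hFNDC4 libraries, against 204, 288 and 249.8 CPM in AAV9-CTRL libraries (log2 fold change -1.35, SE 0.13, edgeR adjusted p = 2.14e-05). It had the largest uncorrected change of the 48 tested genes. Atp5c1, the gamma subunit that turns within the head, had 262, 266 and 257 CPM in AAV9-hFNDC4 libraries, against 278, 367 and 344 CPM in AAV9-CTRL libraries (log2 fold change -0.33, SE 0.12, edgeR adjusted p = 0.0324). Its call did not hold when any 1 of the AAV9-hFNDC4 libraries, AAV9-CTRL replicate 2 or AAV9-CTRL replicate 3 was left out (edgeR adjusted p = 0.0618 to 0.115), nor with the length correction (log2 fold change -0.04).

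Atp5b, the catalytic beta subunit, averaged 1841 ± 46.0 CPM in AAV9-hFNDC4 and 2810.1 ± 197 CPM in AAV9-CTRL libraries (log2 fold change -0.61, edgeR adjusted p = 0.000703). Per kilobase of transcript it was also the highest of the 50 genes, at 961 CPM in AAV9-hFNDC4 and 1467 CPM in AAV9-CTRL libraries. Atp5a1, the alpha subunit, averaged 789.6 ± 25.5 CPM in AAV9-hFNDC4 and 1181 ± 105 CPM in AAV9-CTRL libraries (log2 fold change -0.58), and Atp5d, the delta subunit, had a log2 fold change of -0.78. In these 3 genes the groups did not overlap.

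Of the membrane subunits, Atp5j2 (subunit f) had 146, 137 and 135 CPM in AAV9-hFNDC4 libraries, against 251, 339.8 and 319.7 CPM in AAV9-CTRL libraries (log2 fold change -1.12, SE 0.12, edgeR adjusted p = 4.82e-05). Atp5k, Atp5md and Atp5mpl, small subunits that hold ATP synthase in dimers or associate with them, had log2 fold changes of -1.04, -1.06 and -1.08. Atp5l (subunit g) had -0.63, and -0.11 with the length correction, under which it did not pass. Of the peripheral stalk, which keeps the head from turning, Atp5j, Atp5h, Atp5o and Atp5pb had log2 fold changes of -0.84, -0.78, -0.61 and -0.56. Atp5o did not pass with the length correction (-0.22). Atp5j, Atp5l, Atp5o and Atp5pb share 16.3%, 24.4%, 48.6% and 33.7% of their exon bases with other annotated gene records. These values are summed over the overlapping records, which for Atp5o include another record of the same symbol. Atp5c1, Atp5h, Atp5k, Atp5l, Atp5o, Atp5pb, Atp5g1 and Atp5g2 have near-identical copies among the annotated transcripts, so the split of their reads is uncertain.

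The c-ring is the rotor that protons turn, and Atp5g1, Atp5g2 and Atp5g3 encode the same mature protein with different import sequences. Atp5g3 had 185, 160.2 and 169 CPM in AAV9-hFNDC4 libraries, against 335, 404 and 410.0 CPM in AAV9-CTRL libraries (log2 fold change -1.16, SE 0.11, edgeR adjusted p = 2.7e-05). Atp5g1 had 70.1, 81.4 and 71.3 CPM in AAV9-hFNDC4 libraries, against 127, 156 and 157 CPM in AAV9-CTRL libraries (log2 fold change -0.98, SE 0.12, edgeR adjusted p = 7.83e-05). Atp5g2 had 261, 249.7 and 273 CPM in AAV9-hFNDC4 libraries, against 309, 421 and 408 CPM in AAV9-CTRL libraries (log2 fold change -0.54, SE 0.13, edgeR adjusted p = 0.00437). All 3 genes had groups that did not overlap, with the smallest change in Atp5g2, which did not pass with the length correction (-0.04).

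The mix of c-ring transcripts accordingly differed. Per transcript length, Atp5g2 made up 62.6 ± 1.42% of the c-ring transcripts in AAV9-hFNDC4 and 52.3 ± 1.55% in AAV9-CTRL libraries. Atp5g3 made up 33.5 ± 1.56% in AAV9-hFNDC4 and 43.3 ± 1.44% in AAV9-CTRL libraries. The groups did not overlap in either share (two-sided exact permutation p = 0.1, the smallest possible). Atp5g1 made up 3.91 ± 0.490% in AAV9-hFNDC4 and 4.45 ± 0.110% in AAV9-CTRL libraries (exact permutation p = 0.3). The annotated transcripts of Atp5g1 are either short or long, so its length is uncertain and its share per length may be too low.

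The promoter windows of Atp5e, with the largest change of all, and of the c-ring genes with the largest and the smallest change are shown. That of Atp5e holds 1 ETS motif, that of Atp5g3 holds 1 NRF1 and 1 ERR motif, and that of Atp5g2 holds 1 NRF1 motif.
Atp5e (chr2:174464052-174464351, minus strand): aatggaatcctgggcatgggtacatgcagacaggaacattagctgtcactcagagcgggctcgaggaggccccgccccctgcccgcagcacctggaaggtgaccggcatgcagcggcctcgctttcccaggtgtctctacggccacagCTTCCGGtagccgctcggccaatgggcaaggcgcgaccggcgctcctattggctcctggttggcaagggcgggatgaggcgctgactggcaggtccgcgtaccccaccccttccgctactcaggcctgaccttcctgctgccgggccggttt
Atp5g3 (chr2:73911277-73911576, minus strand): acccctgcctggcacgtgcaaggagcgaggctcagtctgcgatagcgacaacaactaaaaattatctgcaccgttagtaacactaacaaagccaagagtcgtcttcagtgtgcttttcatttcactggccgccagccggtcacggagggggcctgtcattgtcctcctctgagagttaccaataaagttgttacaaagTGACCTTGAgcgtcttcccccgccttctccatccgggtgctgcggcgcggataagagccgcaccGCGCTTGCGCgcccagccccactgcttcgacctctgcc
Atp5g2 (chr15:102670998-102671297, minus strand): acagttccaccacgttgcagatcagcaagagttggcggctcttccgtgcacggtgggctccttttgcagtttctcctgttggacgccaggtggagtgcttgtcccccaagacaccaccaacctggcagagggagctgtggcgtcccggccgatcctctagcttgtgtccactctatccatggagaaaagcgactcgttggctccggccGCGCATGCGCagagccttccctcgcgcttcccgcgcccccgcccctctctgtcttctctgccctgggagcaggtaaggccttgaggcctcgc

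The genes of complexes II to V have short transcripts, and shorter transcripts were lower in the AAV9-hFNDC4 libraries across all genes. The median transcript length was 724 bp for the 48 genes and 2561.5 bp for the tested genes. Tested genes were put in 10 bins of equal size by transcript length. In the bin with the shortest transcripts (102 to 957 bp, 1357 genes), 47.3% were lower and 7.22% higher, with a median log2 fold change of -0.47. The 32 complex II to V genes in that bin had a median of -0.89, and 27 of them were lower. In the next 3 bins, where 41.7%, 34.8% and 29.7% of genes were lower, 6 of 6, 4 of 4 and 3 of 3 of the complex II to V genes were lower. Spearman's rho of the log2 fold change with length was 0.438 across the 48 genes and 0.319 across the tested genes, as a description across genes, which are not independent replicates.

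**Figure D4:**
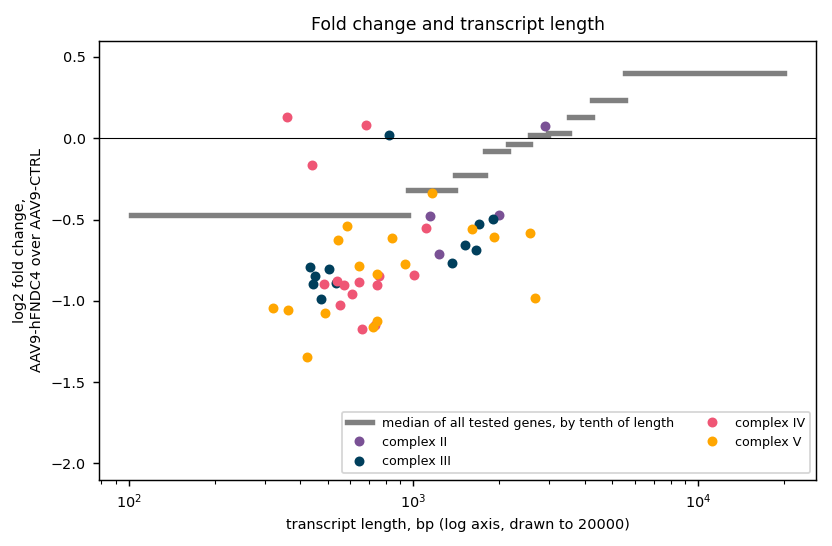
Log2 fold change (AAV9-hFNDC4 over AAV9-CTRL) of the complex II to V genes against transcript length (log axis, bp), coloured by complex, with grey bars for the median of all tested genes in each of 10 bins of length. The medians of all genes run from -0.47 in the bin of the shortest transcripts to 0.40 in that of the longest, and most of the 48 genes lie below them.

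With the trend with length removed in each library, 35 of the 48 genes remained lower and 1, Uqcc3, was called higher, with a median log2 fold change of -0.40. The 35 were all among the 42 called without the correction. By complex, the corrected medians were -0.28 in complex II, -0.37 in complex III, -0.41 in complex IV and -0.41 in complex V, and all 11 genes of complex IV that had been called were still called. The largest corrected values among the called genes were those of Atp5g1 (-0.999, with its uncertain length), Atp5e (-0.76), Atp5g3 (-0.72), Cox7a2 (-0.71) and Atp5j2 (-0.69). How much of the difference goes with length and how much with the respiratory genes as such was not tested. A correction for GC content left 42 genes lower, with a median of -0.74.

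**Figure D5:**
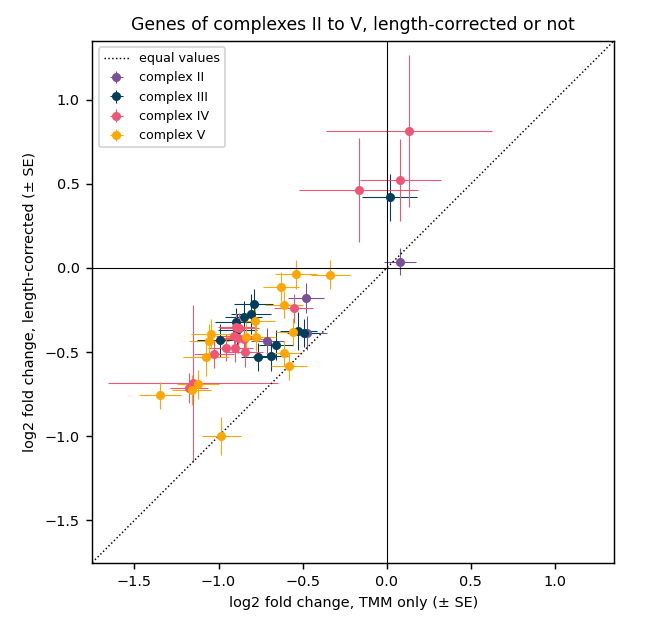
Log2 fold change of each tested gene with the length correction (vertical axis) against the value without it (horizontal axis), coloured by complex, with bars for the standard error and a dotted line at equal values. Most points lie above the diagonal, nearer to 0, and Uqcc3 is called higher at 0.42.

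Other genes of the same pathways were examined as lists, whose counts and medians are without the length correction. In the bin with the shortest transcripts, 47.3% of all genes were lower and 7.22% higher. Of 28 tested assembly factors of complexes II to IV, 11 were lower and 0 higher, against 25% and 22.1% of all tested genes, with a median log2 fold change of -0.16. Cox17, a copper chaperone for complex IV, averaged 32.7 ± 1.24 CPM in AAV9-hFNDC4 and 59.9 ± 2.14 CPM in AAV9-CTRL libraries (log2 fold change -0.87, edgeR adjusted p = 7.93e-05), and Coa3, Cox14 and Cox18 had log2 fold changes of -0.69, -0.68 and -0.62. Of 6 ATP synthase assembly factors and its inhibitor, 4 were lower and 0 higher, against the same 25% and 22.1% (median -0.47). Fmc1, an assembly factor, averaged 36.5 ± 2.60 CPM in AAV9-hFNDC4 and 73.7 ± 12.3 CPM in AAV9-CTRL libraries (log2 fold change -1.01, edgeR adjusted p = 0.000151). Tmem242, Atpif1 (the inhibitor of ATP hydrolysis) and Atpaf2 had log2 fold changes of -0.71, -0.51 and -0.43. The call of Atpaf2 did not hold without AAV9-hFNDC4 replicate 1 or AAV9-CTRL replicate 3 (edgeR adjusted p = 0.0599 and 0.0572), and those of Atpif1 and Coa3 did not hold with the length correction.

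Cytochrome c carries electrons between complexes III and IV, and coenzyme Q carries them from complex II to complex III. Of 15 genes for cytochrome c and coenzyme Q synthesis, 6 were lower and 3 higher (median -0.25), the higher ones at a share near the 22.1% of all tested genes, of which 25% were lower. Cycs, cytochrome c itself, averaged 128 ± 23.0 CPM in AAV9-hFNDC4 and 294 ± 21.2 CPM in AAV9-CTRL libraries (log2 fold change -1.20, SE 0.13, edgeR adjusted p = 4.82e-05). Coq10b, Pdss1 and Coq7, which bind or make coenzyme Q, had log2 fold changes of -1.34, -1.14 and -0.58, and Coq7 did not pass with the length correction.

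Of 14 tested regulators of respiratory genes, 4 were lower and 6 higher, with a median log2 fold change of -0.21. The share called lower was near the 25% of all tested genes, of which 22.1% were higher. Tfb2m, a mitochondrial transcription factor, had 17.0, 16.2 and 19.6 CPM in AAV9-hFNDC4 libraries, against 63.2, 49.2 and 61.2 CPM in AAV9-CTRL libraries (log2 fold change -1.72, SE 0.13, edgeR adjusted p = 9.81e-06). Ppargc1a, the coactivator PGC-1α that raises respiratory gene expression, had 41.0, 44.6 and 40.9 CPM in AAV9-hFNDC4 libraries, against 25.8, 18.8 and 19.8 CPM in AAV9-CTRL libraries (log2 fold change 0.97, SE 0.14, edgeR adjusted p = 0.000196). It was thus higher in the libraries in which the respiratory genes were lower. Tfb1m, which methylates mitochondrial ribosomal RNA, was higher (log2 fold change 0.87), and Yy1 was lower (-0.69). Among the other factors whose motifs were searched, Esrra (an ERR) was lower (-0.79) and Nrf1 was higher (0.31). The Gabp genes differed, with Gabpb1 lower (-0.64), Gabpb2 higher (0.60) and Gabpa not called. Esrrb and Esrrg were not tested.

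Of the 6 subunits of complexes III to V that mitochondrial DNA encodes, 0 were lower and 0 higher (edgeR adjusted p under 0.05, median log2 fold change 0.07). Their levels were far apart, with AAV9-hFNDC4 means of 9325 CPM for COX1 and 3555 CPM for CYTB. COX2, COX3, ATP6 and ATP8 had AAV9-hFNDC4 means of 54.9, 33.1, 13.3 and 0.442 CPM. Whether all reads of these genes were counted is uncertain, so the median is a weak measure of mitochondrial DNA transcripts. COX1, the catalytic subunit of complex IV, had 9299.8, 9433 and 9244 CPM in AAV9-hFNDC4 libraries, against 7011, 9377 and 4662 CPM in AAV9-CTRL libraries (log2 fold change 0.41, SE 0.20, edgeR adjusted p = 0.112). COX2 had 59.1, 56.4 and 49.1 CPM in AAV9-hFNDC4 libraries, against 38.3, 207 and 27.6 CPM in AAV9-CTRL libraries (log2 fold change -0.73, edgeR adjusted p = 0.491). COX3 had 34.6, 34.9 and 29.9 CPM in AAV9-hFNDC4 libraries, against 20.9, 124 and 27.97 CPM in AAV9-CTRL libraries (log2 fold change -0.79, edgeR adjusted p = 0.398). With no low-count filter COX1 was called higher (log2 fold change 0.42, edgeR adjusted p = 0.0025). AAV9-CTRL replicate 2 was the highest control library in all 3. Without it COX1, COX2 and COX3 were called higher in AAV9-hFNDC4, with log2 fold changes of 0.68, 0.74 and 0.44 (edgeR adjusted p = 0.00457, 0.00183 and 0.0269). CYTB of complex III had a log2 fold change of 0.05, ATP6 of complex V 0.08 and ATP8 0.31, with overlapping groups. Transcripts of mitochondrial DNA took 2.20 ± 0.0904% of counts in AAV9-hFNDC4 and 1.51 ± 0.556% in AAV9-CTRL libraries.

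Of 42 tested nuclear subunits of complex I, the entry point of electrons from NADH, 38 were lower and 0 higher, against 25% and 22.1% of all tested genes, with a median log2 fold change of -0.71. This count and median are also without the length correction.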

How the data were processed

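Per the labels' protocols, total RNA was taken with TRIzol and made into libraries with the VAHTS Universal V6 kit. The authors deposited 1 table of unnormalized counts by gene symbol. Per the submitters' processing notes, the tools were fastp, HISAT2, HTSeq, DESeq2 and R 3.2.0 on the build GRCm38 (mm10). Annotation, strand setting and the treatment of multiply matching reads were not given in the sources used here, which leaves shared exons and near-identical copies uncertain.

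From these counts, edgeR 4.0.16 in R 4.3.3 compared 3 against 3 libraries (filterByExpr defaults, TMM, robust quasi-likelihood F test, no covariate). Adjusted p-values are Benjamini-Hochberg values across the 14663 genes tested, called under 0.05. The standard error is the size of the log2 fold change over the root of F. CPM used TMM library sizes, and plain totals for markers. Levels were divided by the median length of a gene's transcripts in the GENCODE vM21 basic annotation (GRCm38), available for 21415 of 27482 symbols and all 50 genes. A near-identical copy was a match of at least 95% identity over 50% of the transcript or 300 bp (BLAST 2.17.0), and 10 of the 50 genes had one. For the length and GC corrections, each library's loess trend (span 0.4) entered the fit as an offset. Isoform ratios used a pseudocount of 0.5 counts. Within each group, no libraries were duplicates of each other by a chi-square test of their counts.

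Named with values in every library were the 3 genes with the largest and the 1 with the smallest change in each complex. So were those not called, the isoform pairs and the c-ring genes. In pathway lists, up to 4 genes with the smallest p were named, most with group means or a log2 fold change only. The other genes of the complexes were named by role. The genes and lists were chosen with earlier results of these data known. The tests were checked on simulated counts. Alternatives were RLE and upper-quartile normalization, no filter, a filter of 1 CPM in 3 libraries, DESeq2 1.42.0, limma 3.58.1 (voom), the replicate number as a block, the 2 corrections, and leaving out each library.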

Additional observations from a re-analysis of the deposited data

How the results depend on the processing

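The count of complex II to V genes called lower was 41 to 44 under each alternative other than the length correction, with 0 called higher. It was 42 with RLE size factors, 41 with upper-quartile normalization, which moved the median of all genes to 0.06, and 43 of 50 with DESeq2 or with no filter. Leaving out 1 library gave 41 to 44 of 48 or 49 tested genes, with medians of -0.86 to -0.73. Without any 1 AAV9-hFNDC4 library, 42 of 49 were lower, of which 41 were among those called with all libraries. Cox6b2, with counts in AAV9-CTRL libraries only, can pass a filter only through that group. With the length correction, 35 were lower and 1 was higher, and the medians were -0.40 for all 48, -0.28 in complex II, -0.37 in complex III, -0.41 in complex IV and -0.41 in complex V. Under it Atpif1 had 0.033 (edgeR adjusted p = 0.798), against -0.51 without it. With 1 library left out, COX2 ranged from -1.16 to 0.74 and COX3 from -1.15 to 0.44, both positive without AAV9-CTRL replicate 2. The cause was not tested.

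No shared deviation was seen between libraries with the same replicate number. Their deviations correlated at -0.0872, -0.202 and -0.0585, against -0.0638 to 0.131 for libraries with different numbers. The labels do not say what a shared number marks, so these values cannot show whether the design paired the libraries. With the number as a block, 41 genes were lower, the one lost being Atp5c1 (adjusted p = 0.0806). Its adjusted p was 0.0731 with upper-quartile normalization.

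At this depth Cox6b2 and Cox7b2 did not reach the minimum count for testing in the main fit.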

Other observations

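Beyond the respiratory chain, genes that supply it were mostly lower in the AAV9-hFNDC4 libraries, in counts and medians without the length correction. Of 14 genes of the tricarboxylic acid cycle other than the Sdh genes, 11 were lower and 1 higher, with a median log2 fold change of -0.36, against 25% and 22.1% of all tested genes. Mdh2, mitochondrial malate dehydrogenase, had 288, 295 and 282 CPM in AAV9-hFNDC4 libraries, against 457, 500.3 and 496 CPM in AAV9-CTRL libraries (log2 fold change -0.75, SE 0.10, edgeR adjusted p = 0.000126). Dlst, Suclg1 and Idh3b, enzymes of the steps from isocitrate to succinate, had log2 fold changes of -0.55, -0.55 and -0.50. In each of these genes the groups did not overlap.

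Of 9 tested carriers of ATP, phosphate and metabolites, 5 were lower and 0 higher, against 25% and 22.1% of all tested genes (median -0.39). Slc25a5, an exchanger of ADP and ATP, averaged 248 ± 14.0 CPM in AAV9-hFNDC4 and 429 ± 44.5 CPM in AAV9-CTRL libraries (log2 fold change -0.79, SE 0.11, edgeR adjusted p = 0.000174). Slc25a3, the phosphate carrier that feeds ATP synthase, averaged 477 ± 17.9 CPM in AAV9-hFNDC4 and 723 ± 71.8 CPM in AAV9-CTRL libraries (log2 fold change -0.60, SE 0.11, edgeR adjusted p = 0.000885). Slc25a20, which carries acylcarnitines, and Vdac2, a channel of the outer membrane, had log2 fold changes of -0.55 and -0.39, and Vdac2 did not pass with the length correction.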
